A study of Mus musculus with 4 samples.

Results

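The genes of antigen presentation by MHC class I were followed in whole-lung RNA of male C57BL mice that had breathed mainstream cigarette smoke or clean air. A list of 10 genes was taken: the class I heavy chains H2-K1, H2-D1, H2-T23 and H2-M3, the light chain B2m, the peptide transporter subunits Tap1 and Tap2, the loading factor Tapbp, the peptidase Erap1 and the transactivator Nlrc5. A gene was kept where a feature of the array carried its symbol and no other, which held for 8 of the 10, out of 30140 genes with such a feature. H2-T23 and Nlrc5 lay on features that listed further symbols as well and are not reported. Each of the 8 genes had 1 feature, and all 8 passed the filter on low signal, the 40th percentile of the mean over the arrays, which left 18084 genes. In RefSeq (GRCm38.p6), 6 of the 8 lie on chromosome 17, where the mouse MHC is: Tapbp at 33919478-33929290, H2-K1 at 33996012-34000619, Tap1 at 34187556-34197225, Tap2 at 34204479-34216321, H2-D1 at 35263094-35267497 and H2-M3 at 37270234-37274485. B2m is at 122147687-122153082 on chromosome 2 and Erap1 at 74639573-74693205 on chromosome 13.

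The 4 groups were 2 weeks of smoke (5 mice, 12 weeks old), 2 weeks of clean air (5 mice, 12 weeks old), 4 weeks of smoke (4 mice, 14 weeks old) and 4 weeks of clean air (5 mice, 14 weeks old). Exposure started at 10 weeks of age and was given for 1 h per day on 5 days per week. The lungs of each group were mixed into 1 pool and measured on 1 array, so the animals' own spread is hidden and a difference between 2 pools has no replicate check and no p-value. The labels give the strain only as C57BL and name no genetic change or other agent, and clean-air mice serve as controls at each duration.

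Class I molecules show fragments of a cell's own proteins to CD8 T cells, while natural killer cells sense their loss. Peptides cut in the cytosol are carried into the endoplasmic reticulum by the TAP transporter, trimmed by ERAP1 and loaded onto a heavy chain paired with beta-2 microglobulin, with tapasin (the Tapbp product) bridging chain and transporter. Nearly all nucleated cells make class I, and interferon-gamma raises the whole set through IRF1 and NLRC5. In the lung, alveolar macrophages, endothelium and epithelium all carry it.

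Signals are on the deposited linear scale and differences are log2, smoke minus control. No source used here states which base made that scale linear. On each array 541 to 581 features exceeded 65535, the ceiling of 16-bit scanners, and the maximum had a log2 of 19.6 to 19.7 and a natural log of 13.6. As a log2 value, 13.6 would lie within a 16-bit scan, and 19.6 to 19.7 would not. If the authors' log2 values had been raised with base e, each log2 difference here would have to be multiplied by 0.693. The differences and percent increases printed here would then be too large in size, except where base e is named. Directions and p-values would stay as they are. A smoke effect over both durations comes from limma with terms for smoke and duration over the 4 arrays (2 smoke and 2 control pools, 1 residual degree of freedom). It is given with its standard error after ±, and its p is adjusted by Benjamini-Hochberg over all 18084 genes. The fit's error is the disagreement of the smoke difference at 2 and at 4 weeks, moderated across genes, so a true change with duration counts as error. "Rose" and "fell" are kept for an adjusted p below 0.05.

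The promoters of the chains are shown because H2-K1, H2-D1 and B2m had smoke differences of like size. None of these passed, and Tapbp, whose stretch is not printed, had an effect of like size (0.20). Any link between these sequences and the differences was not tested. RefSeq windows (GRCm38.p6, from 250 bases before to 50 bases after a start) were found for 7 of the 8 genes, all but Tap2, with a pair of windows for H2-K1. In the stretches below capitals mark the motif matches, on either strand: GGGATTCCC as an NF-kB site, GAANNGAAA as a site of the interferon regulatory factors (TTTCACTTC on the other strand), GAAA, any 2 bases and GAAA as an interferon-stimulated response element (ISRE), TGACG as the X2 element, ATTGG as the Y box (CCAAT on the other strand) and TTCNNNGAA as a gamma-activated site (GAS). H2-K1 is given at chr17:34000334-34000462 on the minus strand, H2-D1 at chr17:35262919-35263050, H2-M3 at chr17:37270020-37270222 and B2m at chr2:122147543-122147643 on the plus strand. Each lies upstream of the start that its window was set on, for H2-K1 the more downstream of its window starts. Counted from the other, the last Y box of H2-K1 lies just after the start. The H2-K1 stretch lies within the span that RefSeq gives for the gene (33996012-34000619).
H2-K1: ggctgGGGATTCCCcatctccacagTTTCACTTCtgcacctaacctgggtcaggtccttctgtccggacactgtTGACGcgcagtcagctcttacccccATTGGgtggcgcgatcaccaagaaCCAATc
H2-D1: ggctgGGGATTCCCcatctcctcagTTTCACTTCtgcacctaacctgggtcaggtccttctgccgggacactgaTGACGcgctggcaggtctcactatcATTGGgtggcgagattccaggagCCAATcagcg
H2-M3: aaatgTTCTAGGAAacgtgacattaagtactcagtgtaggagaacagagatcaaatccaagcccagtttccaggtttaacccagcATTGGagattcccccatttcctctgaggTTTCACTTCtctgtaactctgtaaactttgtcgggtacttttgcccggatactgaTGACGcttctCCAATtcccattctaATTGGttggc
B2m: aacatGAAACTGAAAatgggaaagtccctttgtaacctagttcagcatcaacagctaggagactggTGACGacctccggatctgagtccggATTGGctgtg

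H2-K1 and H2-D1 carried the same elements in the same order: the NF-kB site, the IRF site, X2, and a Y box on each strand. Their windows matched at 166 of 190 aligned bases (87.4%) before the start, taking for H2-K1 its more upstream start. The NF-kB letters GGGATTCCC were found in 0.353% of all 32851 windows and among the 7 genes only in these chains, and GAANNGAAA in 7.52% of windows and in H2-K1, H2-D1 and H2-M3. Both were chosen after these sequences had been seen. The ISRE letters, held by 3.44% of windows, occurred in B2m and at the start used for the Erap1 window. That start lies within the RefSeq span of Erap1 (74639573-74693205). The X2 letters were in 20.8% of windows and in 5 of the 7 genes (H2-K1, H2-D1, H2-M3, B2m and Tap1), and the Y box letters were in 37.4% of windows and in 6 of the 7, all but Erap1. The GAS letters stood in H2-M3 and in 8.30% of windows. A further NF-kB spelling, GGGANTTCC, was in 1.68% of windows and in 0 of the 7 genes. A match describes these letters and is not evidence that a factor binds there.

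**Figure D1:**
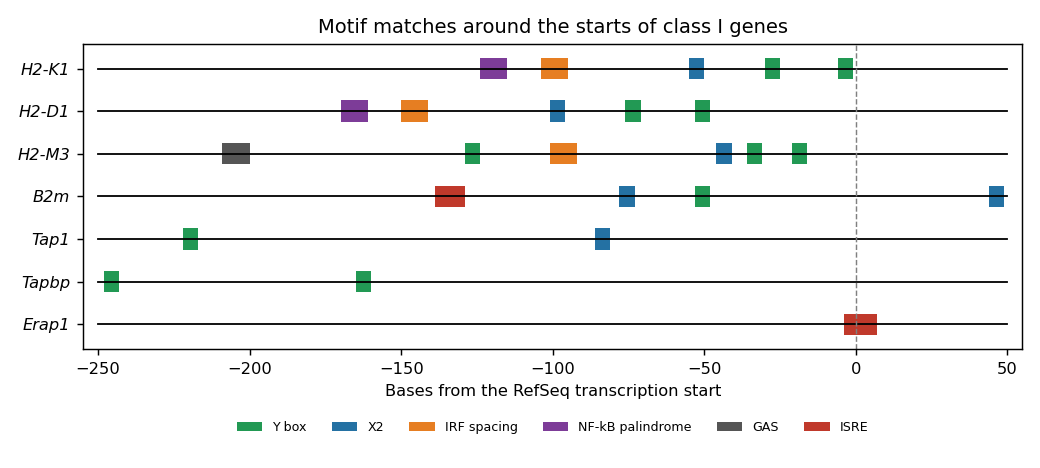
Motif matches in the RefSeq windows of 7 class I genes, by distance in bases from the transcription start (dashed line at 0); each coloured block is 1 match on either strand, and IRF spacing stands for GAANNGAAA. H2-K1 and H2-D1 show the same 5 blocks in the same order, shifted against each other; for H2-K1 the window of the more downstream start is drawn.

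Across the family, smoke differences were small and mostly upward. At 2 weeks the signal was higher in the smoke pool for all 8 genes, by 0.11 to 0.41, with a median of 0.16; 51.3% of all genes were higher there. At 4 weeks it was higher for 7 of the 8, between -0.013 and 0.20, with a median of 0.11, against 46.5% of all genes. The median over all 18084 genes was 0.0056 at 2 weeks and -0.017 at 4 weeks. The smoke difference was smaller at 4 than at 2 weeks in 6 of the 8, against 56.8% of all genes. Of the 12632 protein-coding genes tested, as all 8 are, 8490 had the smaller difference at 4 weeks. Among those 12632, 7127 were higher in smoke at 2 weeks, 4912 at 4 weeks and 3525 at both. In the 4-week control 7481 of them were higher than in the 2-week control. Signal was higher in smoke at both durations for 7 of the 8 genes, against 27.2% of all genes. None of the 8 reached 1.5-fold at either duration, where 3.04% of all genes did at 2 weeks and 4.04% at 4 weeks. With limma, 0 of the 8 rose or fell, against 1.47% of all genes (1.15% rose and 0.315% fell). At an unadjusted p under 0.05 stood 1 of the 8, Tap1, against 11.6% of all genes, or 6.46% when only higher signal is counted. The comparison of the clean-air pools gave differences as large as those of smoke. Here the 4-week control was above the 2-week control for 7 of the 8 genes (52.1% of all genes), with a median of 0.16, and for 5 of the 8 this was at least the gene's own smoke effect, near the 52.6% of all genes for which that held. The mice of these control pools also differed in age.

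**Figure D2:**
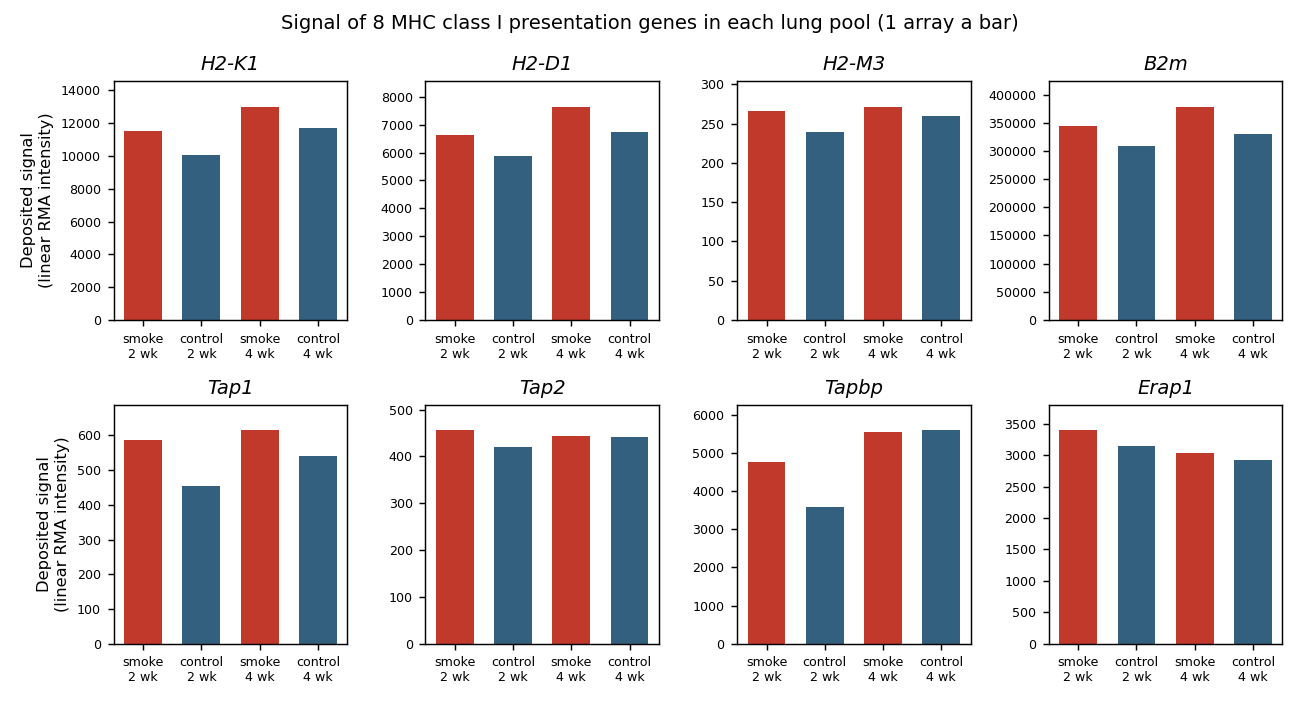
Deposited signal (linear RMA intensity, each panel with its own axis from 0) of the 8 genes in each lung pool, 1 array a bar, red for smoke and blue for clean air. The red bar exceeds the blue bar beside it in every panel at 2 weeks and in every panel but Tapbp at 4 weeks, and the 2-week control is the lowest of the 4 bars in all panels but Erap1.

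The classical heavy chains, which present peptides to CD8 T cells, had nearly the same pattern. H2-K1 had a signal of 11498 in the 2-week smoke pool, against 10062 in its control, and of 13002 in the 4-week smoke pool, against 11689 in its control. The 2-week smoke pool lay below the 4-week control, so the groups overlapped. Its differences were 0.19 at 2 weeks and 0.15 at 4 weeks, or 14.3% and 11.2% higher (9.69% and 7.66% with base e). The effect over both durations was 0.17 ± 0.101 with a 95% interval of -0.07 to 0.42 (adjusted p = 0.627 with limma). H2-D1 had 6635 in the 2-week smoke pool against 5878 in its control, and 7645 in the 4-week smoke pool against 6744 in its control. Again each smoke pool exceeded its own control, while the 2-week smoke pool stayed below the 4-week control. Its effect was 0.18 ± 0.100 (adjusted p = 0.608 with limma). The control pools alone differed by 0.22 for H2-K1 and 0.20 for H2-D1, higher at 4 weeks. The array annotation lists 2 Entrez IDs for the H2-D1 feature, and heavy chains are so alike in sequence that features of one can take signal from another; how much was not tested.

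H2-M3 is a nonclassical heavy chain that presents formylated peptides of bacteria and mitochondria. It had 266 in the 2-week smoke pool and 240 in its control, and 272 in the 4-week smoke pool and 259 in its control. Both smoke pools lay above both control pools, by little. Its differences were 0.15 and 0.07, and its effect was 0.11 ± 0.102 (adjusted p = 0.805 with limma).

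B2m, the light chain that every class I heavy chain needs to reach the cell surface, had 344105 in the 2-week smoke pool and 309095 in its control. At 4 weeks it had 378622 in the smoke pool and 330303 in the control. Both smoke pools were thus above both controls, as was so for 4 of the 8 genes (B2m, H2-M3, Tap1 and Tap2) and for 15.7% of all genes. The differences were 0.15 and 0.20, or 11.3% and 14.6% higher (7.72% and 9.93% with base e). The effect was 0.18 ± 0.101 with an interval of -0.07 to 0.42 (adjusted p = 0.619 with limma). After cyclic loess the 2-week difference was 0.26 and the 4-week difference fell to 0.099. The difference between the control pools was then 0.24, where the deposited scale gave 0.10.

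Tap1, which forms the peptide pump together with Tap2, showed the largest effect of the 8 on all 4 arrays. Leaving out the 2-week control, in a fit that also had no duration term, brought it to 0.15. Without the 4-week control, again with no duration term, it was 0.41, where Tapbp had 0.52. It had 588 and 615 in the 2-week and 4-week smoke pools, against 454 and 541 in the 2-week and 4-week controls. The mean was 602 ± 18.8 in smoke and 498 ± 61.7 in control pools (SD, n = 2 each), and the groups did not overlap. Each SD spans a 2-week and a 4-week pool, so it also holds duration and age and is no replicate spread. Tap1 was 29.6% higher at 2 weeks and 13.6% higher at 4 weeks (19.7% and 9.22% with base e). Its effect of 0.28 ± 0.107 had an interval of 0.02 to 0.54, with an unadjusted p of 0.0386, and did not pass (adjusted p = 0.384 with limma). An effect at least this high was seen in 6.25% of all genes. The 4-week control also exceeded the 2-week control by 0.25. Tap2 had 456 in the 2-week smoke pool and 419 in its control, and 443 in the 4-week smoke pool and 442 in its control, with differences of 0.12 and 0.0041 and an effect of 0.06 ± 0.103 (adjusted p = 0.910 with limma). The 4-week pools were thus nearly equal for Tap2, with a sign that turned under median centring.

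Tap1 lies head to head with Psmb9, an immunoproteasome subunit, with 225 bases between their starts in RefSeq. Psmb9, named for this position, was 0.17 higher in smoke at 2 weeks and 0.10 higher at 4 weeks, and the 4-week control was 0.17 above the 2-week control.

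Tapbp, whose product tapasin holds empty class I chains at the transporter, varied most between pools. It had 4759 in the 2-week smoke pool and 3586 in its control, and 5543 in the 4-week smoke pool and 5594 in its control. The 2-week control was the low pool, and the other 3 lay within a narrower range. The differences were 0.41 at 2 weeks and -0.013 at 4 weeks, and after cyclic loess the 4-week value was positive. The 4-week control was 1.56-fold above the 2-week control (0.64), the only one of the 8 genes past 1.5-fold there, against 4.09% of all genes, or 1.85% when only higher signal is counted. With base e it would be 0.44 and not past 1.5-fold. The effect was 0.20 ± 0.131 (adjusted p = 0.684 with limma), and -0.12 without the 2-week control, in a fit that also had no duration term.

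Erap1 trims peptides to the length that class I chains hold. It had 3394 in the 2-week smoke pool and 3144 in its control, and 3037 in the 4-week smoke pool and 2917 in its control. Among the 8 it alone had less signal in the older control pool (-0.11), and the 4-week smoke pool lay below the 2-week control. Its effect was 0.08 ± 0.101 (adjusted p = 0.866 with limma).

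**Figure D3:**
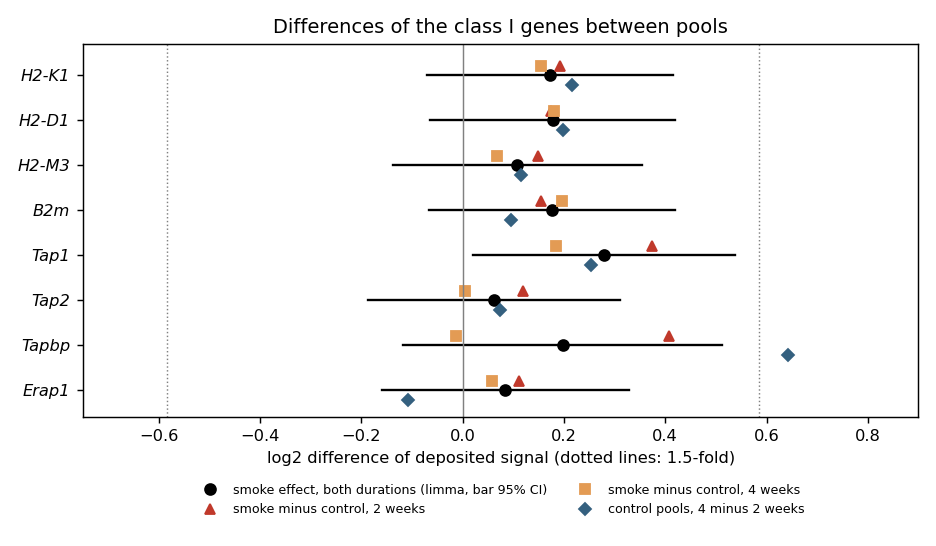
log2 differences of the 8 genes: black points give the limma smoke effect with its 95% interval, red triangles and orange squares the smoke difference at 2 and at 4 weeks, blue diamonds the 4-week minus the 2-week control pool; dotted lines mark 1.5-fold. Only the interval of Tap1 lies above 0 (0.02 to 0.54), and the diamond of Tapbp (0.64) is the one point beyond a dotted line.

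By likeness of pattern, the genes closest to the family's median profile over the 4 arrays were Commd4, Wdr83, Adar, AU040320 and Pradc1. Their root mean square distances were 0.0109 to 0.0134 log2 units, where the profile's own size was 0.116. Adar, an RNA-editing deaminase, was 0.21 higher in smoke at 2 weeks and 0.16 higher at 4 weeks, with 0.17 between the control pools. Of 18076 other genes, 494 (2.73%) lay within 0.05 of it, as did 3 of the 8 class I genes, H2-K1, H2-D1 and B2m, which themselves helped set the profile.

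Further heavy chains of class I fold did not pass either. Of 22 listed, 13 were above the signal floor, and 0 rose or fell. Their median differences were 0.044 at 2 weeks and -0.011 at 4 weeks. The highest effects were those of H2-M2, a nonclassical chain, at 0.46 ± 0.114 (adjusted p = 0.166 with limma) and of Mr1, which presents vitamin B metabolites to MAIT cells, at 0.33 ± 0.105 (adjusted p = 0.286). The lowest were those of Fcgrt, the neonatal Fc receptor, at -0.10, and of H2-Q10 at -0.08.

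Genes that supply peptides were 12, with 9 above the floor and 0 called; their medians were 0.06 at both durations. Psme1, a subunit of the proteasome activator, was at 0.23 ± 0.105 and the immunoproteasome subunit Psmb8 at 0.22 ± 0.116. The 4-week control exceeded the 2-week control by 0.59 for Psme1 and by 0.46 for Psmb8, more than smoke did. The peptidases Npepps (-0.06) and Tpp2 (-0.0058) had the lowest effects. All 9 genes of folding and quality control in the endoplasmic reticulum were above the floor, with medians of -0.02 and 0.06 and 0 called. They ran from Bcap31, an export receptor, at 0.21 and the tapasin relative Tapbpl at 0.11 to Uggt1, a folding sensor, at -0.03 and the chaperone Hspa5 at -0.10.

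Regulators of class I genes were 21, with 17 above the floor, and 0 rose or fell; the medians were 0.13 and 0.0021. Stat2, which carries type I interferon signals, was at 0.41 ± 0.101 (adjusted p = 0.162 with limma). Irf8, a factor of monocytes and dendritic cells, was at 0.37 ± 0.100 (adjusted p = 0.209). The lowest effects were -0.15 for Rfxap, a subunit of the RFX complex that binds the X box, and -0.14 for the interferon-gamma receptor chain Ifngr1. Ifng itself was at or below the floor. Of 14 interferon-induced genes above the floor, 2 rose: Cxcl9, a chemokine induced by interferon-gamma, by 1.26 ± 0.107 (adjusted p = 0.00598 with limma) and the GTPase Iigp1 by 0.73 ± 0.102 (adjusted p = 0.0303). Cxcl9 had log2 signals of 6.32 and 6.74 in smoke pools, against 5.15 and 5.39 in control pools, so both controls lay under the floor of 5.82 and it was tested only through its smoke pools; a floor at the 60th percentile removed it. The antiviral genes Rsad2 (-0.27) and Ifit2 (-0.12) had the lowest effects, and the list's medians were 0.18 and 0.36.

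The class II presentation list is given beside class I on the same arrays. Of its 8 genes above the floor 3 rose (H2-Eb1, H2-Ab1 and H2-DMb1), and its medians were 0.70 at 2 weeks and 0.57 at 4 weeks, where class I had 0.16 and 0.11. The difference between the lists was not tested. H2-Ob, a modulator of class II loading, had the lowest effect, -0.11, followed by H2-DMa at 0.41.

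Receptors of class I and genes of cytotoxic cells were 17, with 15 above the floor. Both that rose are expressed in myeloid cells: Lilrb4a, an inhibitory receptor, by 2.00 ± 0.137 (adjusted p = 0.00286 with limma) and Pirb, an inhibitory receptor that binds class I, by 0.71 ± 0.104 (adjusted p = 0.0332). Whether Lilrb4a binds class I was not examined. Cd8a, the co-receptor of class I restricted T cells, was at -0.13 ± 0.114 and Nkg7, a granule protein of T and NK cells, at -0.09 ± 0.130, the lowest effects of the list. Some other T and NK cell genes were above 0 without passing. Among them were the T cell receptor subunits Cd3e at 0.62 ± 0.161 (adjusted p = 0.184 with limma), Cd3d at 0.20 and Cd3g at 0.12. The NK receptor Klrk1 was at 0.15. For Cd3e the 4-week control exceeded the 2-week control by 0.88. Of the list's 15 genes, Lilrb4a and Pirb included, 9 had effects above 0 and 6 below 0. At 4 weeks 9 of the 15 were lower in smoke. The list's medians were 0.13 at 2 weeks and -0.12 at 4 weeks. In these context lists 7 genes passed in all (Cxcl9, Iigp1, H2-Eb1, H2-Ab1, H2-DMb1, Lilrb4a and Pirb). Without the duration term 0 of the 7 passed, and 0 over all genes. The fits that left out a pool also had no duration term, so a loss of calls there cannot be laid to any pool. After cyclic loess 2 of the 7 passed, Lilrb4a and Cxcl9, the gene tested through its smoke pools. Without a floor H2-DMb1 did not pass.

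**Figure D4:**
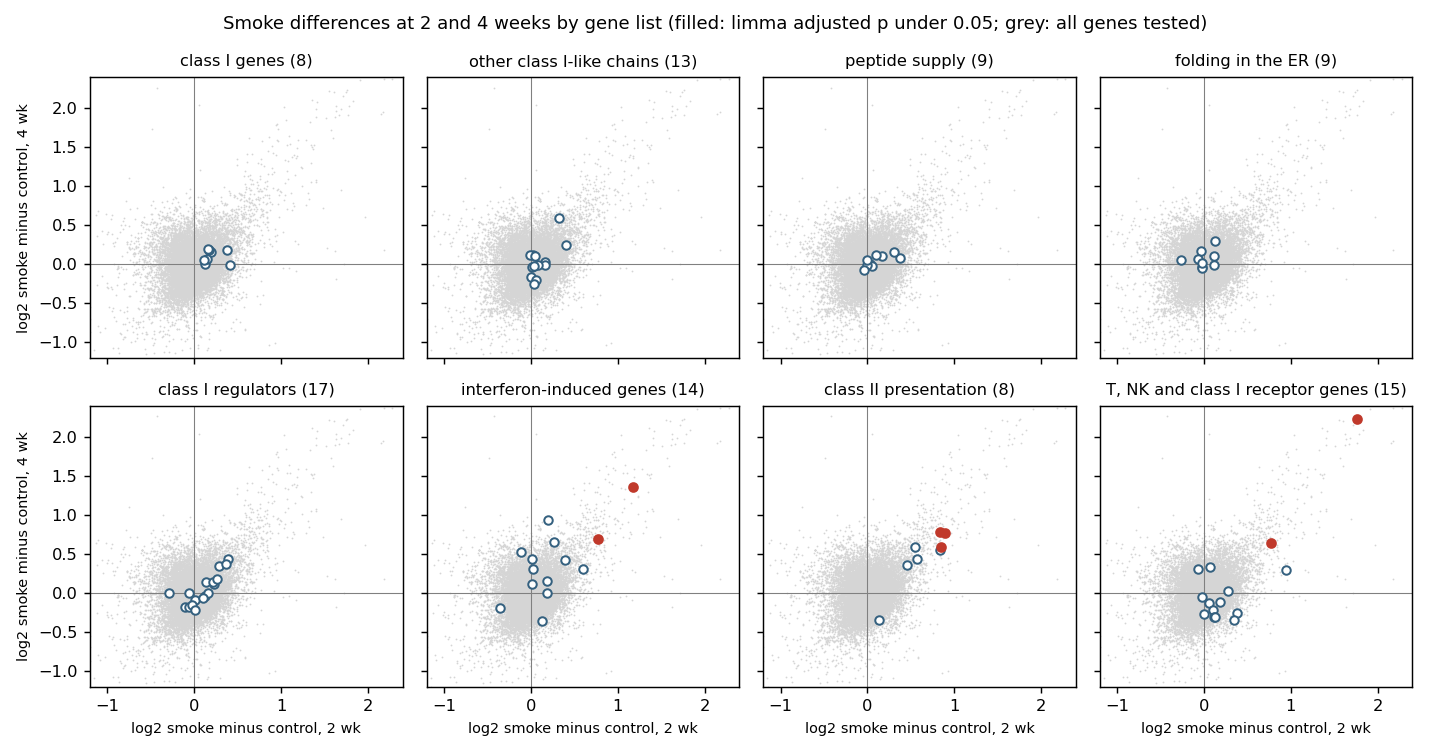
Smoke minus control at 2 weeks (horizontal) and at 4 weeks (vertical), log2, for 8 gene lists; open blue points did not pass limma, filled red points passed, grey points are all genes tested, and genes beyond the axes are not drawn. The 8 class I genes lie close to the origin at 0.11 to 0.41 and -0.013 to 0.20, while 3 of the 8 class II genes are filled.

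Markers of other cell types moved between the pools, and their part in the class I values was not tested. Fewer cells of a type and less RNA per cell cannot be told apart in whole lung. Alveolar macrophage markers had a summed signal of 15152 and 25321 in smoke pools, against 6746 and 8543 in control pools, and 3 of 7 rose. The effects of the 7 were uneven, from -0.0025 to 2.70 with a median of 0.38. Among monocyte and interstitial macrophage markers 3 of 7 rose, with sums of 60217 and 77344 in smoke and 50114 and 88459 in control pools. Ly6c2 made up most of each sum, with 55611 and 70893 in smoke and 46830 and 84353 in control pools, and at 4 weeks the other 6 were higher in smoke, with a list median of 0.70. Endothelial markers had sums of 271883 and 239032 in smoke, against 309009 and 298799 in control pools, with 0 rising and 1 of 6, Cldn5, falling. Neutrophil markers had sums of 2678 and 2164 in smoke and 2648 and 4888 in control pools. Of the 7, 1 rose (Mmp8), and the other 6 had effects below 0 that did not pass, with a list median of -0.46; 5 of the 7 were at least 1.5-fold lower in smoke at 4 weeks. Of 7 dendritic cell markers 1 rose, with sums of 2256 and 2401 in smoke against 1987 and 1936 in control pools, and of 5 fibroblast markers 1 rose (27800 and 25026 against 22968 and 23388). Of the 5 B cell, 6 alveolar type 2, 6 alveolar type 1, 4 club cell and 4 heart markers above the floor 0 rose or fell. Heart markers still differed between pools, with sums of 9837 and 8823 in smoke against 11942 and 16048 in control pools. At 4 weeks 3 of the 4 were at least 1.5-fold lower in smoke (median -0.72), and Nppa, an atrial hormone, was 2.24 higher in the 4-week than the 2-week control pool. The lung label fits markers of alveolar type 2 cells: Sftpc had an effect of 0.06 ± 0.102 and the list's sums were 1439000 and 1525330 in smoke against 1369370 and 1429330 in control pools. No listed marker with a feature of its own was at 0, but none could be, as the lowest signal of any feature was 4.93 to 6.28 by array. Of the dendritic cell markers, 1 was at or below the signal floor.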

How the data were processed

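RNA from pooled lungs was measured on 4 arrays; samples were grouped by their titles. The table deposited by the authors holds linear intensities; the submitters' processing notes name RMA and version 1.4.1 of Affymetrix Expression Console. Filters and the base of the scale: not given in the sources used here. The number of arrays limits the precision. The plan had assumed log2 values, so log2 was taken first. RMA makes the arrays' distributions alike, so a shift of all genes is removed.

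Of 65956 features, 30604 had 1 gene symbol, 2146 several and 33206 were not listed; 22917 matched RefSeq (GRCm38.p6) by Entrez ID and 833 symbols were updated. The feature with the highest mean stood for a gene. Genes above the 40th percentile of mean log2 signal (5.82) were fitted with limma 3.58.1 in R 4.3.3 (lmFit, eBayes; smoke and duration; prior degrees of freedom 5.38), called at a Benjamini-Hochberg adjusted p of 0.05. Single-pool differences were called at 1.5-fold. The fit was run on simulated data with independent noise, no duration effect and changes of at least 1.5-fold. That run says nothing of changes as small as those of this family. Motifs were searched in both strands of RefSeq promoter windows of 300 bases. Genes named are all members, of each other list the genes that passed and both the 2 highest and the 2 lowest effects, of each marker list at most 2 by mean signal, and the 5 nearest in profile; Cldn5, Mmp8, Nppa, Psmb9, Cd3e, Cd3d, Cd3g and Klrk1 were added after values were seen. The members and lists were chosen with earlier results of these data known. Labels do not say whether pools came from separate runs. The table held 0 columns of other samples.

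Alternatives were median centring, cyclic loess, no floor, a floor at the 60th percentile, protein-coding genes only, no duration term, the mean of a gene's features, base e, a pseudocount of 16 and leaving out each pool. The fits that left out a pool also had no duration term. Protein sequences were not used here.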

Additional observations from a re-analysis of the deposited data

Results flagged for a closer look

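Tapbp stood out because its smoke difference pointed opposite ways at the 2 durations: smoke minus control was 0.41 at 2 weeks and -0.013 at 4 weeks. The difference between durations was not tested, since each group was 1 pool. Its signal was 4759 in the 2-week smoke pool against 3586 in its control, and 5543 in the 4-week smoke pool against 5594 in its control. The 4-week value was 0.013 after cyclic loess, so the opposite direction did not hold there.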

How the results depend on the processing

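Each group is 1 pool and the fit has 1 residual degree of freedom, which limits what could be called; detection above background was not used here. Of the 8 class I genes 0 were called under every one of the 13 alternatives run. In 6 of these the effect of a class I gene is the same or a fixed multiple by construction. In the others the effect kept its sign in 55 of 56 fits. Median centring moved all 8 effects by the same small amount, for Tap2, the smallest, from 0.062 to 0.054. The pseudocount also moved them little, for Tap1 from 0.28 to 0.27. A kept sign under median centring or the pseudocount thus says little. The adjusted p of Tap1 ran between 0.130 and 1.00 with limma, the lowest of the 8. The exception to the kept signs was Tapbp at -0.12 without the 2-week control pool. The fits that left out a pool also had no duration term, so a shift in them cannot be laid to the pool alone. Leaving out single pools gave -0.12 to 0.52 for Tapbp, where all 4 arrays gave 0.20. The same gave 0.065 to 0.28 for H2-K1, 0.076 to 0.28 for H2-D1, 0.11 to 0.24 for B2m, 0.15 to 0.41 for Tap1, 0.024 to 0.099 for Tap2, 0.051 to 0.17 for H2-M3 and 0.0043 to 0.16 for Erap1. The 265 genes called over all genes (208 rising, 57 falling) became 585 after median centring (375 rising, 210 falling), 72 after cyclic loess (64 rising, 8 falling), 879 with protein-coding genes only and 0 without the duration term (1163 at an unadjusted p of 0.05); leaving out single pools gave 0 to 34 (0 without the 2-week smoke pool, with 1469 before adjustment, 0 without the 4-week smoke pool, with 597 before adjustment, 6 without the 2-week control, 34 without the 4-week control). Genes past 1.5-fold numbered 353 with protein-coding genes only and 210 with base e at 2 weeks (main 549), 268 with base e at 4 weeks (main 730), and 268 with protein-coding genes only and 233 with base e between the control pools (main 740). With base e, 0 in place of 1 of the 8 class I genes were past 1.5-fold between the control pools, and after cyclic loess the family's median there was 0.26 in place of 0.16. The duration term already sets each smoke pool against the control of its own duration, and the fits without it are unpaired. No pairing beyond that by duration was possible, since each group was 1 pool. The causes of these shifts were not tested.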
